A study of Mus musculus with 9 samples.

Results

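The ADAM genes encode transmembrane proteins with a metalloprotease and a disintegrin domain. The members were every gene of the deposited expression table whose symbol begins with Adam followed by a digit, which gave 34 of 22337 genes. RNA was sequenced from whole testes of 9 mice at 3 weeks of age. The groups were 3 wild-type testes, 3 testes heterozygous for the Piwil4 R264W knock-in allele (Piwil4 WT/R264W) and 3 testes homozygous for it (Piwil4 R264W/R264W). The allele changes arginine to tryptophan in PIWIL4, a piRNA-binding protein of fetal and early postnatal male germ cells, and was made by CRISPR-Cas9 injection of C57BL/6 zygotes. These groups are called heterozygous and homozygous below. Gene counts cannot show a missense allele, so the genotypes rest on the labels. Mice at this age are in the first wave of spermatogenesis, when the first germ cells pass from meiosis into round spermatids.

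In the mouse, many ADAM genes are used chiefly by male germ cells. ADAM2 pairs with ADAM1B as fertilin on sperm and with ADAM1A inside the developing germ cell, and both complexes take part in processing other sperm ADAMs, among them ADAM3, which sperm need to pass from the uterus into the oviduct. A further set, the testases and their relatives, is made in the testis, whereas the sheddases ADAM10 and ADAM17 are made in most tissues and cut receptors and ligands such as Notch and tumour necrosis factor from the cell surface. An active ADAM holds zinc at a site of 3 histidines with a glutamate and a glycine between them, and the proteins that lack this site are thought to act by adhesion or complex formation.

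The codons of that zinc site sort the members by what the encoded protein can bind, and they are shown for 8 members that the results below compare. They were read from the GENCODE M21 coding sequences, in frame and 5′ to 3′, with capitals for the histidine, glutamate and glycine codons of the site.
Adam1a: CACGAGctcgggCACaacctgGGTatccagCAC
Adam1b: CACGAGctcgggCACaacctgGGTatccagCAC
Adam20: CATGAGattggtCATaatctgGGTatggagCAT
Adam39: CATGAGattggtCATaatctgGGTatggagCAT
Adam24: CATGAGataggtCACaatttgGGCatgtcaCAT
Adam30: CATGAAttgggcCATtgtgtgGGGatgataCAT
Adam10: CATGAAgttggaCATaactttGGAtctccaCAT
Adam17: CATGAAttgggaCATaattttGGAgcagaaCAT
Adam1a and Adam1b had the same 33 bases here, and so did Adam20 and Adam39. The pattern was found in 21 members. It was not found in the other 13, which were Adam2, Adam3, Adam4, Adam5, Adam6a, Adam6b, Adam7, Adam11, Adam18, Adam22, Adam23, Adam29 and Adam32.

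The libraries held 17964135 to 24279056 estimated counts, so that 3 counts corresponded to 0.124 to 0.167 CPM, the count scaled to a common library size. ADAM genes took 0.337% to 0.498% of all counts in a testis. The testes differed in how far the first wave had come. This was measured by a round spermatid score, which averages the log2 CPM of 19 genes such as Acrv1, Spaca1, Prm1 and Tnp1, none of which is an ADAM gene. From the lowest to the highest, the score was 0.44 in heterozygous testis 3, 1.06 in wild-type testis 3, 2.06 in homozygous testis 1, 2.30 in wild-type testis 2, 3.27 in heterozygous testis 2, 3.41 in homozygous testis 2, 4.70 in heterozygous testis 1, 5.45 in homozygous testis 3 and 5.65 in wild-type testis 1. Each genotype therefore held testes over a wide range of scores, but the ranges were not the same. They were 1.06 to 5.65 in the wild-type, 0.44 to 4.70 in the heterozygous and 2.06 to 5.45 in the homozygous group. The summed level of the 19 genes was 93.3 to 1113 CPM in the wild-type, 65.2 to 598 CPM in the heterozygous and 184 to 984 CPM in the homozygous group, and Tnp1 and Prm2 were at 0 in at least 1 testis. Homozygous testis 1 stood apart by Adam7 and several other epididymal genes, whose values are given at the end.

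Levels between genes were compared in FPKM, which divides by transcript length. The 5 genes Adam5, Adam3, Adam32, Adam2 and Adam18 held 78.7% to 83.9% of the ADAM counts of each testis. Over the 9 testes Adam5 ranged from 417 to 553 FPKM, Adam3 from 221 to 384, Adam32 from 234 to 327 and Adam2 from 173 to 224. The range of Adam3 overlapped those of Adam32 and Adam2. All of these encode sperm surface proteins, and none held the zinc codons. Adam1b followed at 56.1 to 82.9 FPKM, Adam18 at 46.8 to 62.9 and Adam30 at 25.6 to 40.6, where Adam1b and Adam18 overlapped and Adam30 lay below both.

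The sheddases were lower. Adam10 ranged from 13.9 to 20.2 FPKM, Adam17 from 9.60 to 13.5, Adam9 from 8.92 to 13.1 and Adam15 from 4.66 to 6.65. Adam12 and Adam19, which encode the meltrins known from muscle and mesenchyme, and Adam8, known from leukocytes, stayed under 1 FPKM in every testis. The neural members Adam11, Adam22 and Adam23, of which the latter pair encode receptors for secreted LGI proteins at synapses, ranged from 0.94 to 2.35 FPKM. Adam7, Adam28 and Adam33 were too low to test. Adam33 had 1 to 10 counts in a testis. Adam28 had 4 counts in homozygous testis 2, 1 count in wild-type testis 1 and none in the other 7 testes. Adam7 is described below.

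**Figure D1:**
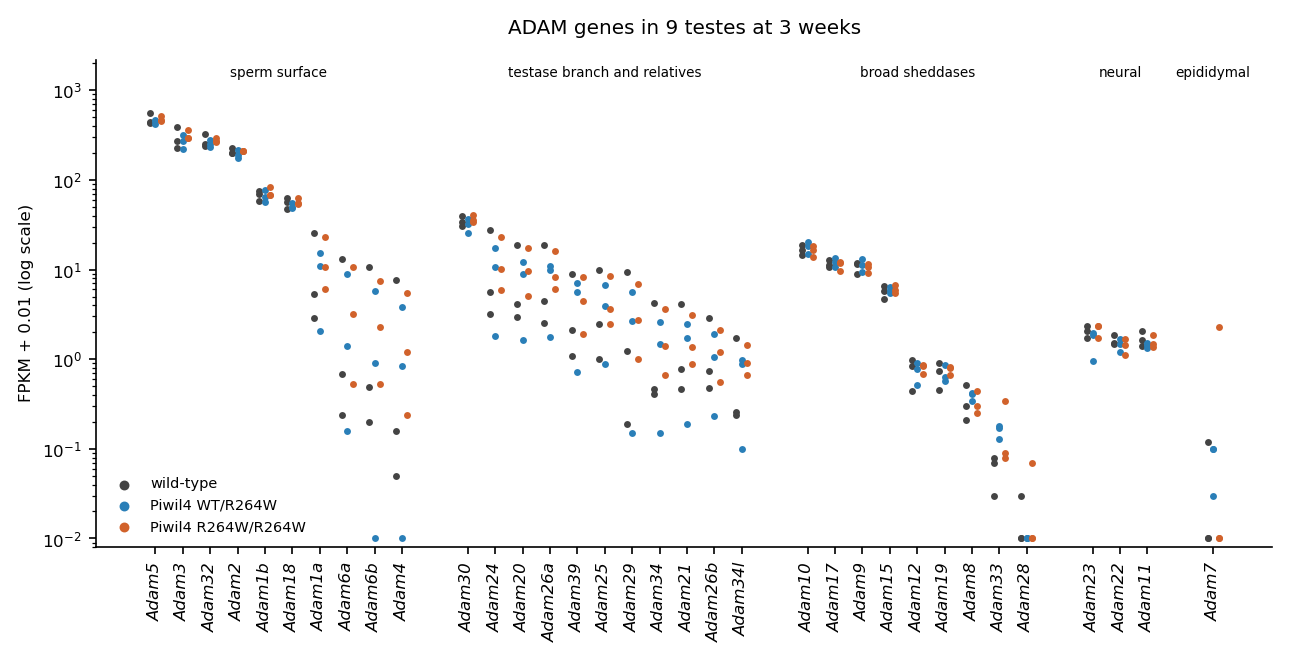
FPKM of the 34 ADAM genes in each of 9 testes, with 0.01 added and a log axis, grouped by the known role of the protein and coloured by genotype. Adam5, Adam3, Adam32 and Adam2 sit between 173 and 553 FPKM in all testes, while Adam1a and the testase branch apart from Adam30 spread over more than 10-fold across the 9 testes.

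The first question was how the members moved with the score. Counts were fitted with edgeR's quasi-likelihood test on the score with genotype as a covariate, and a slope is the change in log2 level per unit of score. Of the 31 members tested, 21 rose with the score at an adjusted p under 0.05 and 0 fell. At an unadjusted p under 0.05, 2 fell, Adam9 and Adam10, as did 2731 of all 15771 genes tested. The adjusted count of falling members was 0 with DESeq2 and 1 with limma. Over all 15771 genes tested, 17.6% rose and 8.48% fell at the adjusted threshold. With limma on FPKM and 0.1 added, 2096 of 14154 genes rose and 2543 fell. The median slope was 0.11 over the members and -0.01 over all genes. In whole testis RNA, fewer cells of a type and less RNA per cell cannot be told apart, and the score itself is made of germ cell transcripts of the same libraries.

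The slopes left a gap between Adam3 at 0.14 and Adam34l at 0.57. Above it stood 14 members, from Adam34l to Adam4 at 1.53, and among all genes tested 4.77% rose with a slope of 0.5 or more. Below it, the members that rose were Adam18 (0.08), Adam5 (0.08), Adam32 (0.09), Adam1b (0.10), Adam30 (0.10), Adam11 (0.11) and Adam3 (0.14). The groups were read off the slopes after they were known, so the gap is a description. Without the 2 testes farthest from the median score, heterozygous testis 3 and wild-type testis 1, 13 members rose. Over all genes, calls dropped too, to 1013 of 15899 rising and 34 falling, from 2771 of 15771 and 1337 in the main fit. The 8 calls lost were those of the 7 members below the gap and of Adam34l. Their adjusted p was then 0.18 to 0.54, while the slopes of the 7 were 0.06 to 0.12, and that of Adam34l was 0.19. The other 13 members above the gap were called in all alternatives that could test them.

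The steepest members encode sperm surface proteins. Adam4, whose protein is found in complexes with other sperm ADAMs, was nearly absent from the testes with low scores. Adam4 was at 21.0, 0.39 and 0.096 CPM in wild-type testes 1 to 3, at 9.64, 2.12 and 0 CPM in heterozygous testes 1 to 3, and at 0.58, 3.06 and 14.6 CPM in homozygous testes 1 to 3. The replicates are given in this order throughout. Its slope was 1.53 ± 0.08 (SE; adjusted p = 8.05e-09, edgeR). It was high in the 3 testes with the highest scores and at 8 counts or fewer in wild-type testes 2 and 3 and heterozygous testis 3. Adam4 lies on chromosome 12 and overlaps Cox16 on the same strand, so some of its reads are of uncertain origin. Its counts were fractional in 3 libraries.

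Adam6a and Adam6b are close copies on chromosome 12 whose proteins also join sperm ADAM complexes. Adam6a was at 37.1, 1.76 and 0.58 CPM in the wild-type, 23.4, 3.69 and 0.37 CPM in the heterozygous and 1.34, 8.37 and 29.7 CPM in the homozygous testes. Adam6b was at 30.0, 1.22 and 0.48 CPM in the wild-type, 14.8, 2.35 and 0 CPM in the heterozygous and 1.34, 5.88 and 20.4 CPM in the homozygous testes. The pair rose and fell together, in the same 3 testes with high scores. Adam6a had a slope of 1.31 ± 0.07 (adjusted p = 4.88e-09, edgeR) and Adam6b a slope of 1.33 ± 0.08 (adjusted p = 4.17e-08, edgeR). Their coding sequences were 94.9% identical and both had fractional counts in 4 libraries, so the split of reads between them is uncertain.

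The testases and their relatives lie mainly on chromosome 8. Adam24 encodes testase 1, a protease of the sperm surface. Adam24 was at 88.5, 16.5 and 9.12 CPM in the wild-type, 51.3, 31.7 and 5.15 CPM in the heterozygous and 17.1, 29.8 and 71.4 CPM in the homozygous testes. It was 17.2 times higher in wild-type testis 1 than in heterozygous testis 3, with a slope of 0.71 ± 0.03 (adjusted p = 2.45e-09, edgeR), and its counts were whole numbers in every library. Adam29, for which the zinc codons were not found, was at 27.7, 3.38 and 0.48 CPM, then 15.8, 7.48 and 0.37 CPM, and then 2.73, 7.59 and 20.3 CPM in the 3 genotypes. Ordered by score it rose at each of the 8 steps, with a slope of 1.02 ± 0.07 (adjusted p = 1.47e-07, edgeR).

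Adam25 encodes testase 2. Adam25 was at 28.1, 6.61 and 2.61 CPM in the wild-type, 18.2, 10.6 and 2.26 CPM in the heterozygous and 6.53, 9.71 and 23.7 CPM in the homozygous testes, with a slope of 0.67 ± 0.04 (adjusted p = 2.18e-08, edgeR). Its relative Adam20 was at 53.3, 10.8 and 7.58 CPM, 31.8, 23.5 and 4.10 CPM, and 13.4, 25.6 and 48.0 CPM, with a slope of 0.63 ± 0.04 (adjusted p = 4.76e-08, edgeR). Both followed the order of the scores in 7 of 8 steps. The coding sequences of Adam20 and Adam25 were 90.04% identical, those of Adam25 and Adam39 were 96.1% identical, and all 3 had fractional counts in 9 libraries, so their levels are less certain than that of Adam24.

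The remaining members above the gap were Adam26a (slope 0.61), Adam26b (0.63), Adam39 (0.70), Adam21 (0.72), Adam34 (0.83) and Adam34l (0.57). All 6 were lowest in heterozygous testis 3 and highest in wild-type testis 1. Adam34l had the fewest counts of the 14, from 4 to 95.2 in a testis, and the largest standard error, 0.11. Its call was lost without wild-type testis 1 (adjusted p = 0.078, edgeR).

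**Figure D2:**
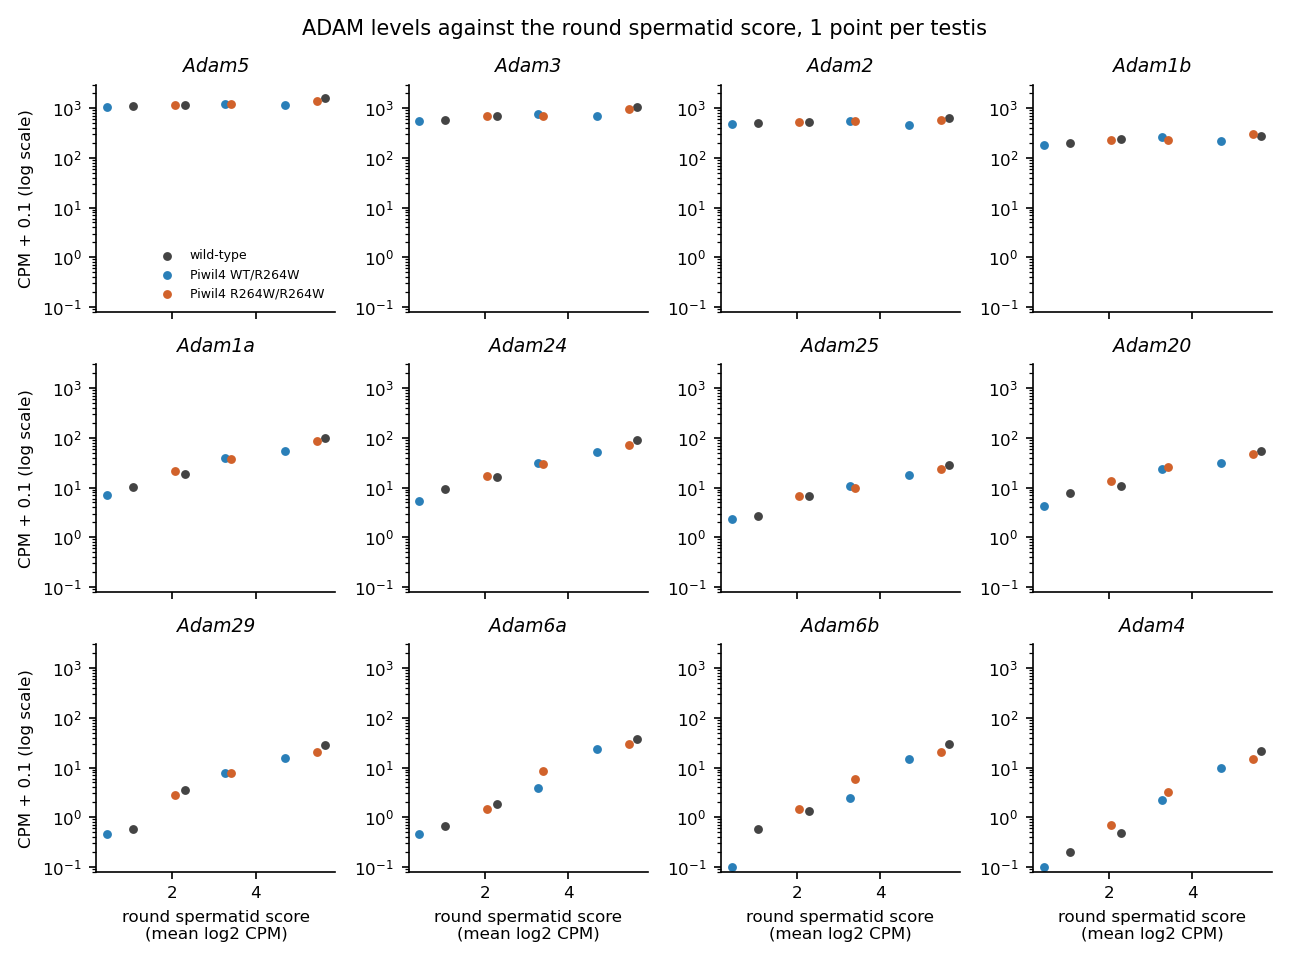
TMM-scaled CPM of 12 ADAM genes, with 0.1 added and a log axis, against the round spermatid score, with 1 point per testis coloured by genotype. Adam5, Adam3, Adam2 and Adam1b run nearly level, Adam1a, Adam24, Adam25 and Adam20 climb more than 10-fold, and Adam6a, Adam6b and Adam4 climb from under 1 CPM to between 21.0 and 37.1 CPM, with points of all 3 genotypes along the same course.

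The abundant sperm surface members rose little or did not pass the test. Adam2 was at 629, 516 and 507 CPM in the wild-type, 451, 560 and 478 CPM in the heterozygous and 533, 543 and 576 CPM in the homozygous testes. Its highest level was 1.39 times its lowest, and its slope of 0.04 ± 0.02 was not called (adjusted p = 0.20, edgeR). Without heterozygous testis 1, which had the lowest Adam2 level, the slope was 0.06 and was called (adjusted p = 0.0032, edgeR). Over all genes, 3421 of 15990 rose in that fit, against 2771 of 15771 with all testes.

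Adam5 was at 1570, 1160 and 1106 CPM in the wild-type, 1179, 1228 and 1051 CPM in the heterozygous and 1173, 1217 and 1413 CPM in the homozygous testes. The slope was 0.08 ± 0.02 (adjusted p = 0.0037, edgeR), and the call was lost without wild-type testis 1 (slope 0.06, adjusted p = 0.078, edgeR). Adam3 was at 1040, 708 and 586 CPM, 689, 770 and 540 CPM, and 692, 693 and 963 CPM in the same order. It had the largest slope among the abundant members, 0.14 ± 0.02 (adjusted p = 0.00037, edgeR), which was called without any single testis. The ratio of Adam3 to Adam2 in FPKM lay between 1.15 and 1.73 and rose in 4 of 8 steps of the score.

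Adam18 and Adam32, whose proteins are less well known, had slopes of 0.08 ± 0.02 and 0.09 ± 0.02 (adjusted p = 0.013 and 0.0046, edgeR). The call of Adam18 was lost without wild-type testis 1, wild-type testis 3 or homozygous testis 3 (adjusted p = 0.15, 0.094 and 0.062, edgeR), with slopes of 0.07, 0.06 and 0.08. That of Adam32 was lost without wild-type testis 1 (slope 0.06, adjusted p = 0.10, edgeR). Adam30, a testis member of the testase branch, had a slope of 0.10 ± 0.02 (adjusted p = 0.0014, edgeR) that was called without any single testis. Adam3, Adam5, Adam18, Adam32 and the sheddase gene Adam9 lie next to each other on chromosome 8, apart from the testases of that chromosome.

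The share of the members above the gap in the family restates the slopes by which they were grouped. Their part of all ADAM counts was 0.84% in heterozygous testis 3, the testis with the lowest score, and 9.39% in wild-type testis 1, the testis with the highest, and it rose in 7 of 8 steps of the score.

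The split was set beside the exon structure of the genes. By the GENCODE M21 annotation of GRCm38, 16 members have a single coding exon and 18 have between 16 and 30. All 14 members above the gap have a single coding exon. Only Adam1b and Adam30 among the single-exon genes lay below it, and all 15 multi-exon genes tested did. Single-exon genes of this family are thought to have arisen as retrotransposed copies. Of the 14 members above the gap, 10 held the zinc codons, while of the 7 sperm and testis members below it 2 did. Also below it, the 7 sheddases tested all held the codons and the 3 neural members did not. Exon structure and membership of the testase branch overlap in part. Adam1a, Adam4, Adam6a and Adam6b, above the gap, are single-exon sperm surface members outside that branch. Of the single-exon genes below the gap, Adam30 belongs to the branch and Adam1b does not. The parts of structure and branch in the slopes were not tested.

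**Figure D3:**
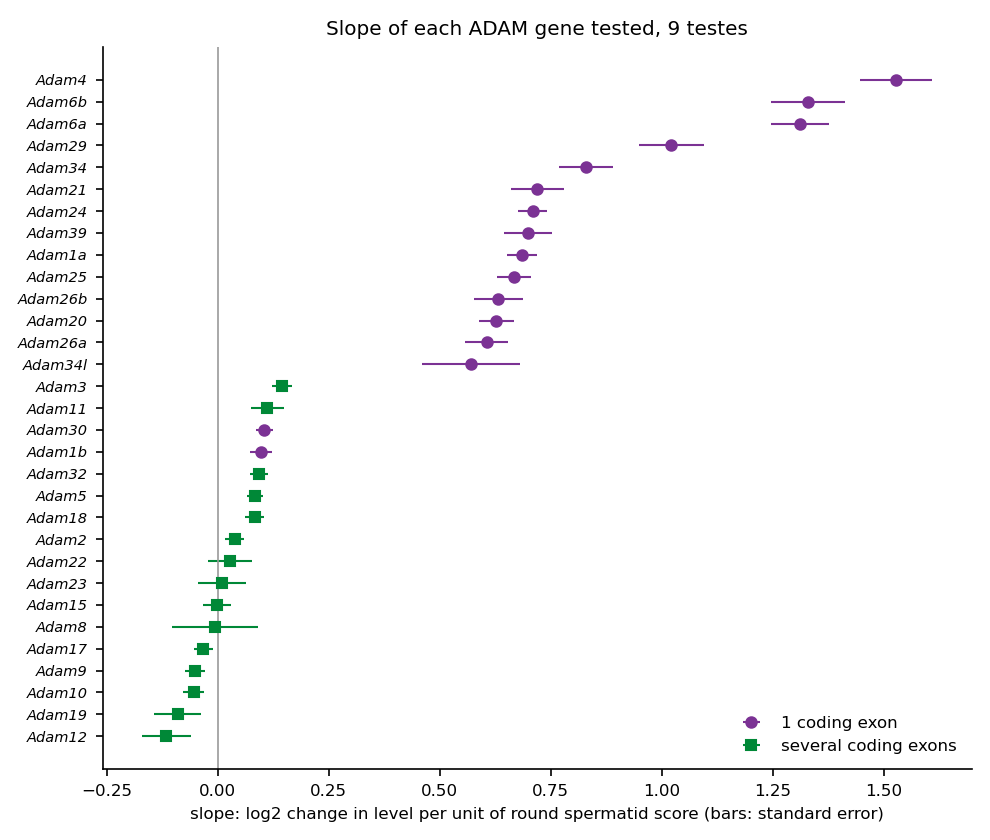
Slope on the round spermatid score of the 31 ADAM genes tested, in log2 units per unit of score, with standard errors as bars and with circles for genes of 1 coding exon and squares for genes of several. The 14 genes from Adam34l at 0.57 to Adam4 at 1.53 are all circles, and every square lies at or under the 0.14 of Adam3.

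Adam1a and Adam1b, a pair of sequence relatives, lay on opposite sides of the gap. They lie on the minus strand of chromosome 5, each has a single coding exon, and their coding sequences were 80.9% identical. Adam1a was at 98.7, 18.8 and 10.1 CPM in the wild-type, 54.2, 39.1 and 6.99 CPM in the heterozygous and 21.1, 38.2 and 86.3 CPM in the homozygous testes. Adam1b was at 277, 237 and 195 CPM, 217, 265 and 184 CPM, and 228, 228 and 298 CPM in the same order. Adam1b was higher than Adam1a in all testes.

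Adam1a spanned 14.1-fold over the testes and Adam1b 1.62-fold. The slope was 0.68 ± 0.03 for Adam1a (adjusted p = 3.96e-09, edgeR) and 0.10 ± 0.02 for Adam1b (adjusted p = 0.010, edgeR). In FPKM, Adam1a was 0.036 of Adam1b in the testis with the lowest score and 0.34 of it in the testis with the highest, and this ratio rose in 7 of 8 steps. Both genes had fractional counts in 9 libraries, and Adam1a overlaps Mapkapk5 on the same strand. The call of Adam1b was lost without any one of wild-type testis 1, wild-type testis 3, heterozygous testis 3 or homozygous testis 3 (adjusted p = 0.068, 0.063, 0.073 and 0.058, edgeR), where its slope was still 0.09 to 0.10.

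The 250 bases before the start of each gene are shown because the pair shares its zinc site and most of its coding bases but not its course. They come from the RefSeq promoter table of GRCm38.p6, are written 5′ to 3′ on the gene's strand, and lie at chr5:121521696-121521945 for Adam1a and chr5:121503436-121503685 for Adam1b, both on the minus strand. Capitals mark AACNG, the core bound by MYB factors, of which A-MYB works in pachytene spermatocytes.
Adam1a: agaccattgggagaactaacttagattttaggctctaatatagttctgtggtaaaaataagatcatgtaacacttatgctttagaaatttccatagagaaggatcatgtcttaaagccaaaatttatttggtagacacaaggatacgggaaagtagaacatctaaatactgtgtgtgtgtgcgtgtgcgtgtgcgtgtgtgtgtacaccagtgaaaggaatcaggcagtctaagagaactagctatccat
Adam1b: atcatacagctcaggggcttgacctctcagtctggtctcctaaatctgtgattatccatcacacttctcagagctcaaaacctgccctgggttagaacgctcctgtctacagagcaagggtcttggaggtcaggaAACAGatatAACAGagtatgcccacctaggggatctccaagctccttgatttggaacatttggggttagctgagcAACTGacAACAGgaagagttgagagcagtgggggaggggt
On both strands the Adam1a window held 0 matches and the Adam1b window 4, which do not overlap. With the 50 bases after the start, the Adam1a promoter held a match too. Of 32851 such windows of all genes in the table, 74.2% held at least 1 match, 25.8% held none and 7.03% held 4 or more. A match is a description of letters and not a binding site.

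The table held 300-base promoters, 250 before and 50 after the start, for 18 members. The abundant members Adam2, Adam3, Adam5, Adam18 and Adam32 had none there, nor did Adam4, Adam24 and Adam30. The counts below therefore do not describe the whole family. AACNG was found in 16 of the 18, Adam1a and Adam1b included, and in 80.3% of all promoters. TGACG, the half-site bound by CREB and CREM, was found in 1 of 18, Adam10, against 20.8% of all promoters, and the full site TGACGTCA in 0 of 18 against 1.79%. GTTGCC, a half-site of RFX factors, was found in Adam19, Adam26b and Adam34l, 3 of 18, against 12.5%. A member was counted if any of its promoters matched, and Adam19 had several, while the shares over all promoters count each promoter. The 10 members above the gap with a promoter in the table had a GC content of 35.3% to 48.3%, and Adam1b had 51.0%. The promoters of the 7 sheddase and neural members had 49.3% to 73.3%. The lowest of these was 1 of the Adam19 promoters, and the others of that gene had 57.0% and 60.3%.

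The broadly expressed and neural members moved little. Of the 7 sheddases tested, none was called, with slopes from -0.12 for Adam12 to -0.0016 for Adam15. Adam9 and Adam10 came nearest, each with a slope of -0.05 ± 0.02 (adjusted p = 0.10 and 0.11, edgeR). Both calls were made without heterozygous testis 1 (adjusted p = 0.028 and 0.011, edgeR), with slopes of -0.07 and -0.08. Calls rose over all genes in that fit, where 2786 of 15990 fell, against 1337 of 15771 with all testes. Adam12 was called without homozygous testis 1 (slope -0.16, adjusted p = 0.043, edgeR), where 683 of 15976 genes fell. Adam11 was the only neural member called, with a slope of 0.11 ± 0.04 (adjusted p = 0.042, edgeR). It was lost in 7 of the 9 fits that left out 1 testis, with an adjusted p of up to 0.28 without wild-type testis 1, and in DESeq2 (adjusted p = 0.055). It was kept without heterozygous testis 1 or 2.

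Some other cell type markers also moved with the score. Over all genes, 17.6% rose and 8.48% fell. The pachytene spermatocyte genes rose in 8 of 11 and fell in 1, the leptotene and zygotene genes fell in 7 of 10, the spermatogonial genes fell in 3 of 10 and rose in 1, the Sertoli cell genes fell in 4 of 14 and rose in 1, and the Leydig cell genes rose in 2 of 8. The peritubular myoid genes rose in 1 of 8 and fell in 1, the macrophage genes rose in 1 of 9 and the endothelial genes in 1 of 8. None of these genes was at 0 in any testis. Of the 4 epididymal genes tested, 1 rose and 1 fell, and no striated muscle or adipose gene was called. The part of these cell types in the slopes of the ADAM genes was not tested.

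Partner genes were followed in the same fit in 2 lists. The first holds 14 factors that mice need to process ADAM3 or place it on sperm. Of these, 8 rose with the score and 1 fell. Pdilt, a testis chaperone of the protein disulfide isomerase family, was at 96.6, 16.2 and 7.24 CPM in the wild-type, 57.2, 31.3 and 3.89 CPM in the heterozygous and 16.9, 27.4 and 82.4 CPM in the homozygous testes. Its slope was 0.80 ± 0.04 (adjusted p = 2.77e-09, edgeR). Prss37, which encodes a protease-like protein, had a slope of 1.95 ± 0.11 (adjusted p = 1.005e-08, edgeR) and ranged from 0 to 16.0 CPM. The others that rose were Calr3, Ace, Prss55, Pmis2, Cmtm2a and Cmtm2b.

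Tex101, which encodes a germ cell surface protein, fell with a slope of -0.07 ± 0.02 (adjusted p = 0.016, edgeR). Its level was 308, 393 and 433 CPM in the wild-type, 404, 460 and 445 CPM in the heterozygous and 412, 407 and 348 CPM in the homozygous testes. The chaperone gene Clgn was not called, with a slope of 0.03 ± 0.02 (adjusted p = 0.19, edgeR).

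The second list holds 18 genes for the transport, cleavage and inhibition of ADAM10 and ADAM17, of which 16 were tested. Pcsk4, a germ cell proprotein convertase, rose with a slope of 0.14 ± 0.03 (adjusted p = 0.0082, edgeR). Tspan17, a tetraspanin that escorts ADAM10, fell with a slope of -0.12 ± 0.03 (adjusted p = 0.015, edgeR), and Furin, which removes the prodomain, fell with a slope of -0.09 ± 0.03 (adjusted p = 0.040, edgeR). The other 13, among them Rhbdf1, Rhbdf2, Timp1, Timp2 and Timp3, did not pass the test.

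The second question was whether the members differed between genotypes. Each pair of genotypes was fitted separately with edgeR. None of the 31 members passed an adjusted p under 0.05 and 2-fold in any of the 3 comparisons, and none did with DESeq2 or limma. Among all genes, edgeR called 0.0% in each comparison, and DESeq2 called 2 genes, both in homozygous against heterozygous. None of the members passed an unadjusted p under 0.05 either, where the share over all genes was 1.26% between homozygous and wild-type, 2.22% between homozygous and heterozygous and 1.11% between heterozygous and wild-type. In no comparison did the 3 testes of one genotype lie clear of the 3 of the other for any member, which 5.58%, 7.06% and 5.36% of all genes did. The comparisons share testes, so their values are not independent.

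The median log2 fold change of the members was 0.01 in homozygous against wild-type, 0.23 in homozygous against heterozygous and -0.26 in heterozygous against wild-type. Over all genes the medians were -0.01, 0.01 and -0.02. The members above the gap carried the spread, with log2 fold changes from -0.89 to 0.68 and standard errors of 0.69 to 1.93. The 7 sperm and testis members below it lay within -0.23 and 0.23, with standard errors of 0.10 to 0.24.

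Single testes moved these medians. Leaving out 1 testis at a time, they lay between -0.16 and 0.28, between -0.01 and 0.46, and between -0.40 and 0.07 in the 3 comparisons. The median of homozygous against heterozygous was -0.01 without homozygous testis 3 and 0.05 without heterozygous testis 3. That of heterozygous against wild-type was 0.07 without wild-type testis 1 and 0.01 without heterozygous testis 3. Without wild-type testis 3, at a score of 1.06, the median of heterozygous against wild-type was -0.40. Without homozygous testis 1, at a score of 2.06, that of homozygous against heterozygous was 0.46. The part of the score in these shifts was not tested.

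With the score in the model, the medians were 0.04, 0.09 and -0.02. The median standard error of the 14 members above the gap went from 0.91, 0.83 and 1.04 to 0.20, 0.24 and 0.24. The score comes from the same testes, so a genotype difference that went with the score would be removed here. No member passed the adjusted threshold in this fit. Adam23 and Adam12 passed an unadjusted p under 0.05 in homozygous against heterozygous, which 3.06% of all genes did in this fit, with log2 fold changes of 0.54 ± 0.22 and 0.62 ± 0.25 (adjusted p = 0.998 for both, edgeR). No member did so in homozygous against wild-type, where 4.88% of all genes did, or in heterozygous against wild-type, where 2.04% did.

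The comparison of homozygous with wild-type also turned on wild-type testis 1, the testis with the highest score. Without it, 11 members were higher in homozygous at an unadjusted p under 0.05 and 2-fold, which 3.02% of all genes were. These were Adam1a, Adam4, Adam6a, Adam6b, Adam20, Adam21, Adam24, Adam26a, Adam34, Adam34l and Adam39, all above the gap, with log2 fold changes of 1.59 to 4.60 and an adjusted p of 0.62 in edgeR.

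**Figure D4:**
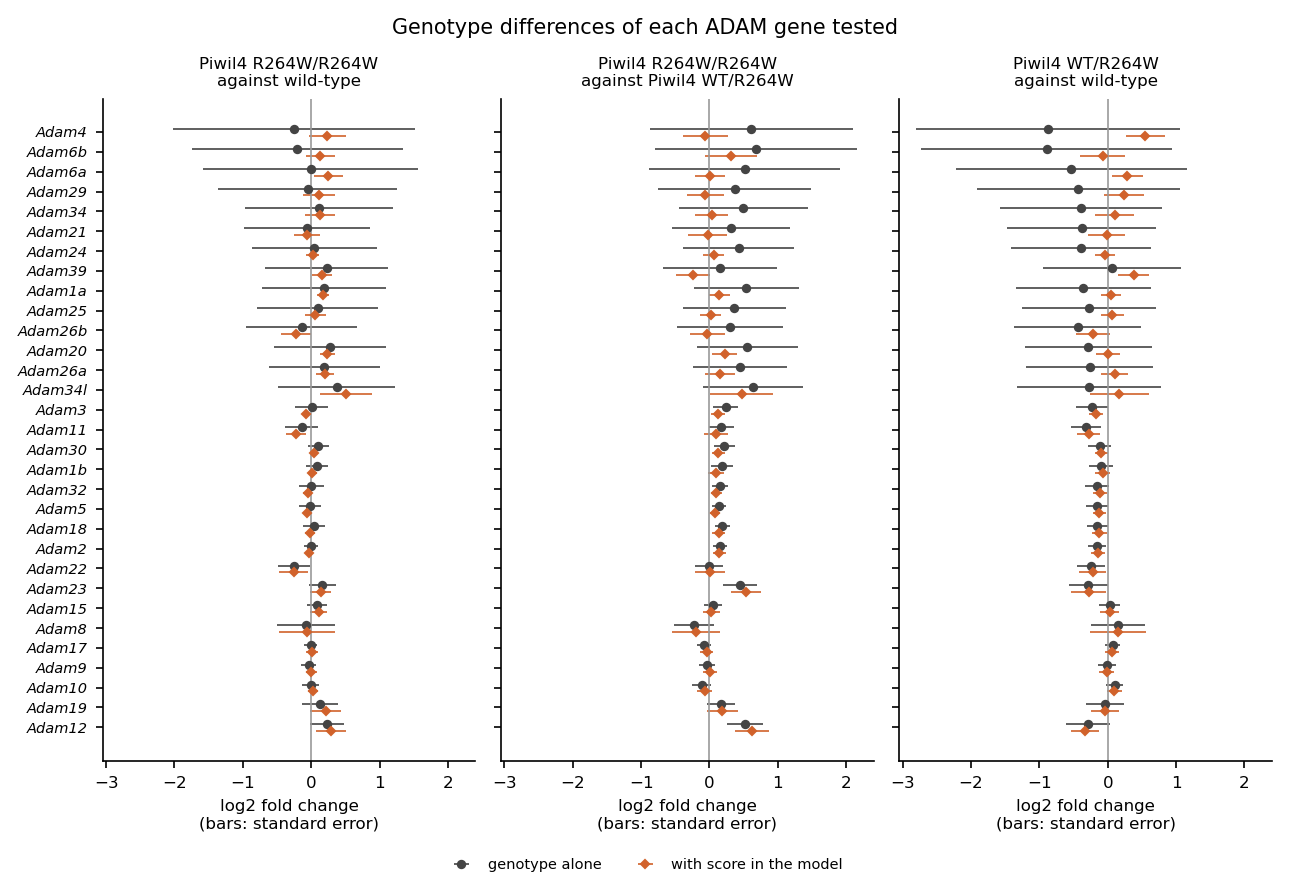
Log2 fold change of the 31 ADAM genes tested in the 3 genotype comparisons, with standard errors as bars, from the fit on genotype alone (circles) and with the round spermatid score in the model (diamonds). Genes are ordered by slope as in the plot of slopes, and in the upper 14 rows the bars shorten from a median of 0.83 to 1.04 to one of 0.20 to 0.24.

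Values are given here for the 2 higher and the 2 lower members with the smallest p in each comparison. Since both directions are shown, other members can have a smaller p than some of these. Adam12 was at 3.62, 6.46 and 5.79 CPM in the wild-type, 3.05, 4.24 and 5.73 CPM in the heterozygous and 5.23, 6.57 and 6.83 CPM in the homozygous testes. Its log2 fold change was 0.52 ± 0.26 against heterozygous (adjusted p = 0.95, edgeR; exact two-sided permutation p = 0.20) and 0.23 ± 0.25 against wild-type (adjusted p = 0.9998, edgeR; exact p = 0.50). With 3 testes against 3 the permutation test cannot give a p under 0.1. The groups overlapped, since heterozygous testis 3 was higher than homozygous testis 1.

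Adam23 was at 10.3, 8.27 and 6.66 CPM in the wild-type, 4.58, 8.71 and 7.57 CPM in the heterozygous and 9.22, 10.4 and 8.65 CPM in the homozygous testes. The difference from heterozygous was 0.45 ± 0.25 (exact p = 0.20) and that from wild-type 0.16 ± 0.20 (exact p = 0.40), on the log2 scale. Heterozygous testis 1 was the lowest of all testes. Adam22 was at 6.36, 4.50 and 4.87 CPM, 4.93, 4.19 and 4.21 CPM, and 5.46, 4.08 and 3.70 CPM in the same order, and differed by -0.25 ± 0.23 between homozygous and wild-type (exact p = 0.40).

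Adam11 was at 11.6, 8.47 and 7.09 CPM in the wild-type, 7.31, 7.93 and 6.62 CPM in the heterozygous and 7.61, 6.94 and 10.1 CPM in the homozygous testes. Its log2 fold change was -0.32 ± 0.22 in heterozygous against wild-type (exact p = 0.30) and -0.14 ± 0.24 in homozygous against wild-type (exact p = 0.60). The latter was 0.08 without wild-type testis 1, the highest of the 9. Adam8 was at 0.97, 1.62 and 0.63 CPM, 1.26, 1.06 and 1.26 CPM, and 0.89, 1.35 and 0.80 CPM, and differed by -0.23 ± 0.30 between homozygous and heterozygous (exact p = 0.40).

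Adam10 was at 70.7, 72.7 and 83.0 CPM in the wild-type, 84.7, 69.6 and 89.7 CPM in the heterozygous and 84.0, 77.3 and 64.0 CPM in the homozygous testes. It differed by 0.10 ± 0.12 between heterozygous and wild-type and by -0.11 ± 0.14 between homozygous and heterozygous (exact p = 0.50 for both). Adam17 was at 49.96, 47.4 and 53.8 CPM, 53.6, 47.9 and 57.8 CPM, and 53.2, 52.1 and 45.4 CPM, and differed by 0.07 ± 0.11 between heterozygous and wild-type (exact p = 0.50). Adam2 differed by -0.16 ± 0.13 in that comparison (exact p = 0.40). None of the genes of the partner lists was called between genotypes.

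Adam7 encodes a protein that the epididymis makes and passes to sperm. It had 0, 8 and 0 counts in wild-type testes 1 to 3, 7, 6 and 1 in heterozygous testes 1 to 3 and 177, 0 and 0 in homozygous testes 1 to 3. Homozygous testis 1 thus held 88.9% of all Adam7 counts, at 7.92 CPM against at most 0.39 CPM elsewhere, and 4 libraries held none.

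Other epididymal genes were set beside it. Crisp1, a major secreted protein of the epididymis, had 883 counts in homozygous testis 1. It had 0, 109 and 0 counts in wild-type, 28, 78 and 5 in heterozygous testes, and 0 in the other homozygous testes. Serpina1f had 130 counts in homozygous testis 1 and at most 16 elsewhere, and Rnase9 had 20 against at most 2. The testes with 6 to 8 counts of Adam7, wild-type testis 2 and heterozygous testes 1 and 2, were also the next highest for Crisp1.

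Of 20 epididymal genes in the table, 6 were highest in homozygous testis 1, 3 of them with at least 10 counts there and 3 with 1 to 3, and 8 were at 0 in all libraries, namely Gpx5, Lcn6, Lcn8, Lcn9, Lcn10, Pate4, Spink12 and Teddm1a. Rnase10, Cst8 and Cst12 had at least 20 counts in every testis. Their sum over all 20 was 101 to 117 CPM in the wild-type, 104 to 136 CPM in the heterozygous and 98.2 to 157 CPM in the homozygous testes. Without Rnase10, Cst8 and Cst12 it was 46.5 CPM in homozygous testis 1 and 0.057 to 6.36 CPM in the others. The part of epididymal RNA in the other values of this testis was not tested. Homozygous testis 1 also had the lowest score of its group, 2.06 against 3.41 and 5.45. Without this testis the median log2 fold change of the members went from 0.01 to 0.24 against wild-type and from 0.23 to 0.46 against heterozygous. The parts of the score and of epididymal RNA in these shifts were not tested.

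**Figure D5:**
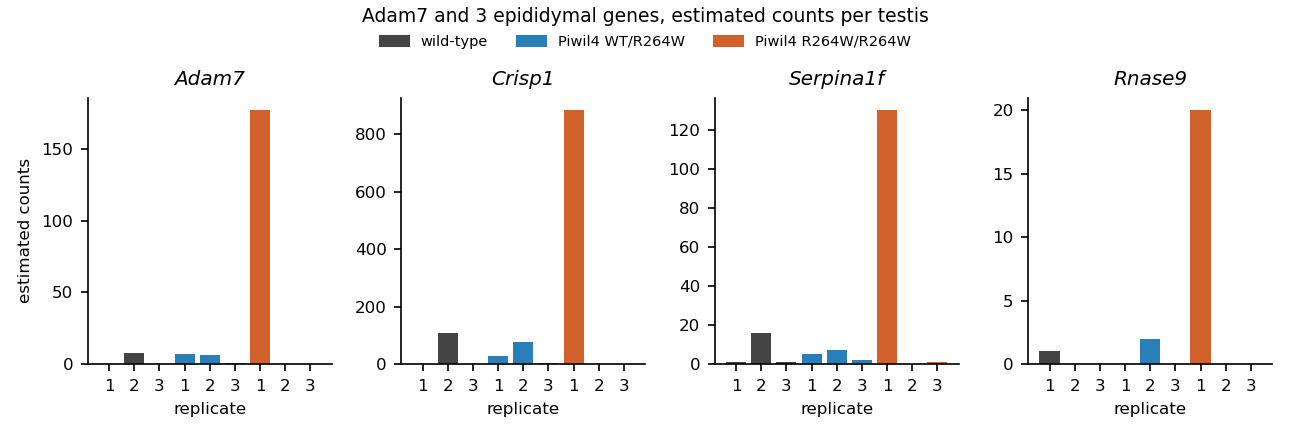
Estimated counts of Adam7 and of the epididymal genes Crisp1, Serpina1f and Rnase9 in each testis, in bars coloured by genotype and numbered by replicate. Each gene is highest in homozygous testis 1, with 177, 883, 130 and 20 counts.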

How the data were processed

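Messenger RNA libraries were made from total RNA of 9 testes. Per the labels, the authors' notes name fastp (version 0.18.0), StringTie (version 1.3.1), DESeq2 and the build mm39; the counting tool is not given in the sources used here. The deposited table holds FPKM values computed by the authors with StringTie and estimated counts per gene, not scaled for depth. Counts were fractional in 12 members. Reads shared between copies can give such counts, but the sources used here do not state how these arose. The members and gene lists were chosen with earlier results of these data known.

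Estimated counts were rounded. In R (version 4.3.3), edgeR (version 4.0.16; filterByExpr, TMM, quasi-likelihood, two-sided, Benjamini-Hochberg over all genes tested) was run on each pair of genotypes and on the score with genotype over all 9 libraries. CPM is TMM-scaled, and the floor of 3 counts is given before scaling. SE is the log2 value divided by the square root of F. The fits were tested on simulated data. Named with values in each testis were the 8 rising members with the smallest p, Adam1a, Adam1b, Adam2, Adam3, Adam5 and Adam7, the 2 higher and 2 lower members with the smallest p in each genotype comparison, and for partner genes the 2 with the smallest p in each direction. Clgn, Adam28, Adam33 and the epididymal genes fall outside this rule and were picked with their values in view. Other settings tried were the tool DESeq2 (version 1.42.0), edgeR with size factors from DESeq2, limma (version 3.58.1) with 0.1 or 1 added to FPKM before log2, other filters and scores, a replicate block, and leaving out testes. The labels number the testes as replicates, and p-values measure only the spread between them. The deviations of same-numbered testes correlated at 0.71 and 0.78 for numbers 1 and 3 of wild-type and heterozygous, but at -0.73 to 0.07 for the other pairs, so the numbers were not taken as pairs. The annotation (GENCODE M21) is of GRCm38, so no coordinates of the build mm39 are given, and those of the 2 upstream windows are of GRCm38.p6. No column of other samples was present.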

Additional observations from a re-analysis of the deposited data

How the results depend on the processing

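Slopes above the gap kept their direction and call in 272 of 274 alternatives, the 2 exceptions being Adam34l. Below the gap, 275 of 338 did. The count of rising members was 13 without the 2 testes farthest from the median score, 20 with the replicate block and 15 to 22 leaving out single testes. Over all genes, 1013 of 15899 rose without the 2 farthest testes and 2466 of 15771 with the replicate block. Leaving out single testes, rising genes numbered from 1708 of 15917 without wild-type testis 1 to 3421 of 15990 without heterozygous testis 1. Falling members were 1 with limma at either pseudocount (Adam10), 2 with the pachytene spermatocyte score (Adam9 and Adam10) and 0 to 2 leaving out single testes. Over all genes, 2543 and 2526 of 14154 fell with limma and 2272 of 15771 with the pachytene score. Leaving out single testes, falling genes numbered from 360 of 16079 without wild-type testis 3 to 2786 of 15990 without heterozygous testis 1. Without the 2 farthest testes, slopes that were not called changed sign for Adam12 (0.058), Adam19 (0.077), Adam8 (0.093), Adam15 (0.017), Adam23 (-0.082) and Adam22 (-0.11). Adam15 also did so with DESeq2 (0.0024), its size factors (0.0024), at least 10 counts per library (0.0022), the pachytene score (0.019) and no genotype term (0.0020), Adam23 with limma (-0.055 and -0.033) and Adam22 with the replicate block (-0.023). Leaving out single testes, slopes lay between -0.085 and 0.034 for Adam8, -0.035 and 0.039 for Adam15, -0.070 and 0.073 for Adam23 and -0.034 and 0.063 for Adam22, and the log2 fold change of Adam11 in homozygous against wild-type between -0.32 and 0.079. The cause was not tested. Counts of members called between genotypes were 0 in all alternatives, which does not speak to stability. With the replicate block the medians of members were 0.18, 0.23 and -0.12 in the 3 comparisons in the order of the report. Depth limits Adam4 and Adam6b in testes with low scores. With 3 testes per genotype, the 14 members above the gap had standard errors of 0.69 to 1.93 between genotypes. With the score in the model, their median standard errors were 0.20, 0.24 and 0.24.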
